A study of Danio rerio with 12 samples.

Results

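The genes described here are apoeb, slc7a10a, ptgdsb.1, id1, itgb5 and lipg, 6 of the 30258 Ensembl features in a bulk RNA-Seq count matrix of sorted zebrafish retinal cells. They were chosen by symbol because the deposited comparison of tdTomato- retinal cells with tdTomato+ cones lists them as higher in tdTomato- cells, so their excess over tdTomato+ cones is what selected them and is given as a description, with no test. All groups came from adult zebrafish labelled WT in genotype, each carrying a fluorescent transgene. LWS1 cones (GFP+) and LWS2 cones (RFP+) were sorted from lws:PAC(H) fish, in which a PAC clone of the lws locus places GFP behind the lws1 promoter and RFP behind the lws2 promoter. The tdTomato+ cones and the tdTomato- retinal cells were sorted from thrb2:tdTomato fish, where the thyroid hormone receptor beta 2 promoter drives the reporter in LWS cones, so the tdTomato- sort is a mixture of the remaining cells and of any cone that the gate missed. Each group had 3 libraries, from fish of both sexes whose retinas were separated from the pigment epithelium and dissociated with enzymes. The sources do not say which libraries came from separate fish, so an error given here is the spread between libraries, which may be technical.

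Müller glia span the retina, take up glutamate and supply lipid, serine and other small molecules to neurons, and rods, other cones, interneurons and ganglion cells make up the rest of a retina without its LWS cones. Apolipoprotein E carries lipid between cells and is made in the mammalian retina by glia, which gives a known context for apoeb. The other genes encode an amino acid carrier, a lipocalin-type prostaglandin D synthase, a helix-loop-helix protein of the BMP pathway, an integrin chain and a secreted lipase.

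Total counts ranged from 459226 in tdTomato- replicate 1 to 3189337 in tdTomato- replicate 2. The share of counts from the 13 mitochondrial protein genes was 53.4% to 54.3% in the tdTomato- libraries and 12.9% to 71.7% in the cone libraries, the highest being tdTomato+ replicate 2. The labels call the tdTomato- cells cone photoreceptors by cell type and retinal cells by treatment, and their RNA held that of several classes. The rod opsin gene rho stood at a mean of 21005 CPM (read counts on the usual CPM scale, with libraries scaled by TMM over all 12) in tdTomato- cells and at 1413 to 5465 CPM in the cone groups. The UV opsin gene opn1sw1 stood at 10385 CPM against 162 to 1053 CPM. A list of 19 LWS cone features summed to a mean of 53013 CPM in tdTomato- cells and to 78092 to 113667 CPM in the cone groups. It is led by pde6ha, a cone phosphodiesterase subunit gene that is not particular to LWS cones.

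**Figure D1:**
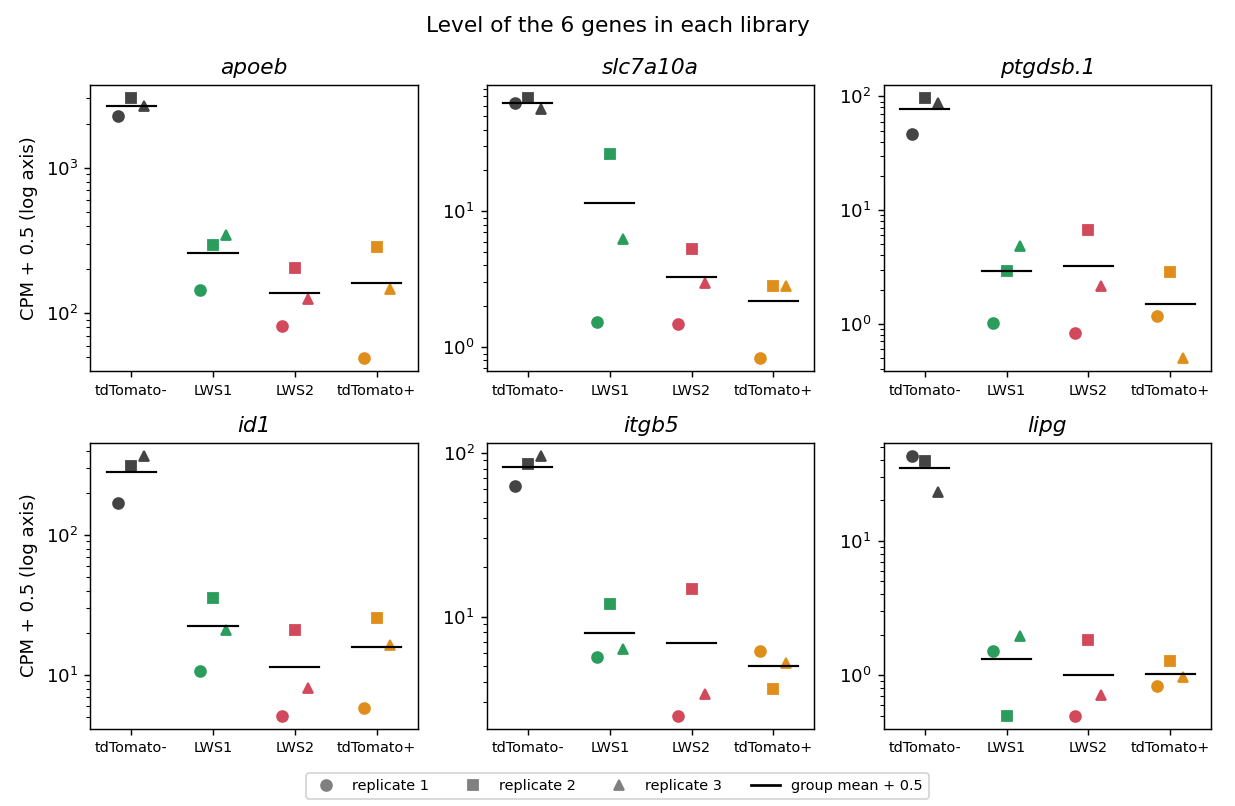
Level of each gene in the 12 libraries, as CPM + 0.5 on a log axis, by group (x axis), with the replicate shown by the shape of the point and the group mean by a line. For all 6 genes the 3 tdTomato- libraries sit above the 9 cone libraries, while the 3 cone groups overlap one another.

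Each of the 6 genes had counts in every cone group, but for lipg and ptgdsb.1 no LWS1 or tdTomato+ library was above 3 counts. Each was highest in tdTomato- cells, with all 3 tdTomato- libraries above all 9 cone libraries. Across all features kept over the 12 libraries, 5.3% of 10154 had that pattern, a share beside which nothing can be read from the genes because the rule used these libraries. The group mean in cones, as a percent of the tdTomato- mean (called the residual level below), ran from 1.31% for ptgdsb.1 in tdTomato+ cones (0.437% without tdTomato+ replicate 2) to 17.6% for slc7a10a in LWS1 cones (5.49% without LWS1 replicate 2). In sorted bulk RNA, fewer cells of a type and less RNA per cell cannot be told apart. For LWS1 and LWS2 cones the residual level also crosses fish lines, since the tdTomato- cells came from thrb2:tdTomato fish.

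apoeb (ENSDARG00000040295) encodes a zebrafish apolipoprotein E, the lipid-carrying protein of lipoprotein particles. In tdTomato- replicates 1, 2 and 3 its counts were 688, 7335 and 4403, which scaled to 2261, 3013 and 2644 CPM. LWS1 cones had 279, 361 and 237 counts, or 143, 293 and 344 CPM. LWS2 cones had 245, 933 and 601 counts, or 81.1, 204 and 124 CPM. The lowest tdTomato- library was thus several times the highest cone library, and LWS1 and LWS2 overlapped. The tdTomato+ cones had 146, 368 and 313 counts, or 48.8, 287 and 147 CPM, a spread as wide as that between the cone groups. The means were 2639 ± 376 CPM (SD, n = 3) in tdTomato- cells, 260 ± 104 CPM in LWS1, 136 ± 62.5 CPM in LWS2 and 161 ± 120 CPM in tdTomato+ cones. These gave residual levels of 9.86%, 5.17% and 6.09% in LWS1, LWS2 and tdTomato+ cones, which are 10.1-fold, 19.3-fold and 16.4-fold below tdTomato- cells. Without tdTomato+ replicate 2 the tdTomato+ value was 3.70%. With 827 or more counts behind every cone group, apoeb was the best measured of the 6 genes in cones.

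lipg (ENSDARG00000031044) encodes endothelial lipase, known in mammals as a secreted phospholipase that acts on high-density lipoprotein. Its counts were 13, 94 and 38 in tdTomato- cells, or 42.7, 38.6 and 22.8 CPM, with a mean of 34.7 ± 10.5 CPM (SD, n = 3). The cone libraries were at the limit of detection. LWS1 cones had 2, 0 and 1 counts, LWS2 cones 0, 6 and 1 counts, and tdTomato+ cones 1, 1 and 1 counts. In counts pooled over the 3 libraries, the residual level was 2.36% in LWS1 cones, with an exact 95% interval of 0.480% to 7.02%. The same value was 1.71% (0.675% to 3.61%) in LWS2 cones, where 6 of the 7 counts were from replicate 2, and 1.42% (0.290% to 4.24%) in tdTomato+ cones. The intervals cover counting error only, they overlap, and no order among the cone groups can be read for lipg at this depth.

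ptgdsb.1 (ENSDARG00000027088) encodes a prostaglandin D synthase of the lipocalin type, an enzyme that in mammals also carries small lipophilic molecules. Its counts were 14, 235 and 145 in tdTomato- cells, or 46.0, 96.5 and 87.1 CPM, with a mean of 76.5 ± 26.9 CPM (SD, n = 3). LWS1 cones had 1, 3 and 3 counts, and tdTomato+ cones 2, 3 and 0 counts, so that every library of these groups was at or under 3 counts, taken here as the smallest reliable count. LWS2 cones had 1, 28 and 8 counts, or 0.331, 6.13 and 1.65 CPM. LWS2 replicate 2 alone carried 28 of the 37 LWS2 counts. On group means the LWS2 value was 3.53%, and 1.3% without that library. The pooled residual levels were 2.02% (0.808% to 4.21%) in LWS1, 3.33% (2.31% to 4.67%) in LWS2 and 0.872% (0.282% to 2.05%) in tdTomato+ cones, with exact 95% intervals. Its near copy ptgdsb.2 lies beside it in the gene order of the GRCz12tu assembly, and reads shared between the copies could have been split by the authors' counting, which makes the level of ptgdsb.1 uncertain.

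slc7a10a (ENSDARG00000008100) encodes a carrier of small neutral amino acids such as serine, alanine and glycine. Its counts were 19, 165 and 94 in tdTomato- cells, or 62.4, 67.8 and 56.4 CPM, the closest agreement between tdTomato- libraries of the 6 genes (62.2 ± 5.67 CPM, SD, n = 3). LWS1 cones had 2, 32 and 4 counts, or 1.03, 26.0 and 5.81 CPM. LWS2 cones had 3, 22 and 12 counts, or 0.993, 4.81 and 2.48 CPM. LWS1 replicate 2 was far above the other cone libraries, at 41.8% of the tdTomato- mean. The tdTomato+ cones had 1, 3 and 5 counts, or 0.334, 2.34 and 2.34 CPM. The residual levels were 17.6% in LWS1, 4.44% in LWS2 and 2.69% in tdTomato+ cones, and the LWS1 value fell to 5.49% without LWS1 replicate 2 and the LWS2 value to 2.79% without LWS2 replicate 2. The gene next to it in the gene order of GRCz12tu, rhpn2, had the same peak, with 4, 85 and 5 counts in LWS1 replicates 1, 2 and 3 against 11, 25 and 21 in LWS2, and it was picked out after its values were seen. In LWS1 replicate 2 rhpn2 stood at 69.0 CPM, above the highest tdTomato- library (44.8 CPM), whereas slc7a10a in that library stayed below all 3 tdTomato- libraries.

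id1 (ENSDARG00000040764) encodes an inhibitor of DNA binding, a helix-loop-helix protein without a DNA-binding part that is switched on by BMP signals. Its counts were 51, 754 and 614 in tdTomato- cells, or 168, 310 and 369 CPM, with a mean of 282 ± 103 CPM (SD, n = 3). LWS1 cones had 20, 43 and 14 counts, or 10.3, 34.9 and 20.3 CPM. LWS2 cones had 14, 93 and 37 counts, or 4.63, 20.4 and 7.64 CPM. In both of these groups replicate 2 was highest. The tdTomato+ cones had 16, 32 and 34 counts, or 5.35, 24.9 and 15.9 CPM. The residual levels were 7.74% in LWS1, 3.86% in LWS2 and 5.46% in tdTomato+ cones, and the 3 cone groups overlapped throughout. Without LWS2 replicate 2 the LWS2 value was 2.18%.

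itgb5 (ENSDARG00000012942) encodes an integrin beta chain that pairs with the alpha V chain in receptors for the extracellular matrix, and that in mice takes part in the uptake of outer segments by the pigment epithelium. Its counts were 19, 206 and 159 in tdTomato- cells, or 62.4, 84.6 and 95.5 CPM, with a mean of 80.8 ± 16.8 CPM (SD, n = 3). LWS1 cones had 10, 14 and 4 counts, or 5.14, 11.4 and 5.81 CPM. LWS2 cones had 6, 65 and 14 counts, or 1.99, 14.2 and 2.89 CPM. LWS2 replicate 2 held most of the LWS2 counts, as it did for ptgdsb.1. The tdTomato+ cones had 17, 4 and 10 counts, or 5.68, 3.12 and 4.69 CPM. The residual levels were 9.20% in LWS1, 7.88% in LWS2 and 5.56% in tdTomato+ cones. Without LWS2 replicate 2 the LWS2 value was 3.02%.

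The values that selected the genes were large in the edgeR fit of tdTomato- against tdTomato+ libraries, at log2 fold changes of 3.99 for apoeb, 5.22 for slc7a10a, 6.39 for ptgdsb.1, 4.15 for id1, 4.09 for itgb5 and 5.95 for lipg. Those of ptgdsb.1 and lipg rest on 5 and 3 counts in tdTomato+ cones and depend on the prior count of the fit. In that fit 2.14% of 8236 features were called (FDR under 0.05 and fold change above 2) and 1.99% were called higher in tdTomato- cells, all 6 genes among them, which the choice of genes fixes. None of the 6 was called when tdTomato- replicate 2 or tdTomato+ replicate 3 was left out, settings that left 1 and 0 called features in all. The direction did not change in either. The comparisons of tdTomato- cells with LWS1 and with LWS2 cones share these tdTomato- libraries, and all 6 genes were above LWS1 and LWS2 without overlap, where 11.9% and 13.8% of features were, beside 9.4% above tdTomato+ cones.

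The comparison of LWS2 with LWS1 cones used no library of the choice, and asks whether residual levels of these genes differed between the cone subtypes of lws:PAC(H) fish. None of the 6 genes was called, in a fit where edgeR called 152 of 8432 features, or 1.8% (1.2% higher and 0.605% lower in LWS2), and 1228 features had an unadjusted p under 0.05. Of the genes tested 1, apoeb, had an unadjusted p under 0.05 (0.0367, edgeR), and DESeq2 called none of them. ptgdsb.1 and lipg did not pass the filter on low counts, which left apoeb, slc7a10a, id1 and itgb5. Log2 fold changes below 0 are lower in LWS2. apoeb had a log2 fold change of -0.91 (SE 0.376, 95% interval -1.75 to -0.07) and an FDR of 0.306 in edgeR's quasi-likelihood test. slc7a10a had -1.93 (SE 0.983, -4.13 to 0.26), with an edgeR FDR of 0.408. These estimates were negative but, after adjustment over all features, not past the threshold. id1 had -0.98 (SE 0.641, -2.41 to 0.45), with an edgeR FDR of 0.527. itgb5 had -0.21 (SE 0.794, -1.98 to 1.56), with an edgeR FDR of 0.940. The intervals do not exclude a fold change above 2 in either direction for itgb5, nor a lower level in LWS2 by that much for the other 3 genes.

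**Figure D2:**
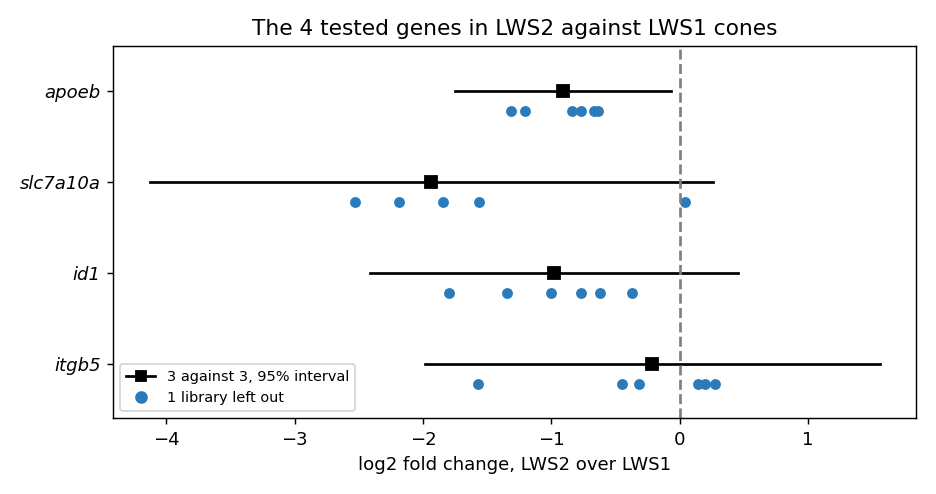
Log2 fold change of LWS2 over LWS1 (x axis) for the 4 genes that passed the filter on low counts (y axis), with squares and lines for the estimate and its 95% interval from 3 against 3 libraries and circles for fits with 1 library left out. The estimates run from -1.93 for slc7a10a to -0.21 for itgb5, and the circles of slc7a10a reach 0.044 without LWS1 replicate 2.

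The estimate of slc7a10a rested on LWS1 replicate 2, without which its log2 fold change was 0.044 (edgeR FDR 0.989, and 0.149 to 0.989 over the alternatives in which it passed the filter). Without LWS2 replicate 2 it did not pass the filter on low counts and has no value. That of itgb5 rested on LWS2 replicate 2, without which it was -1.57, and it was above 0 without LWS1 replicate 2 (0.28), LWS2 replicate 1 (0.20) or LWS2 replicate 3 (0.15). apoeb stayed between -1.31 and -0.64 and id1 between -1.79 and -0.37 over the libraries left out. For apoeb the edgeR FDR ran from 0.0343 to 0.721 over the alternatives. The lowest was that with no filter on low counts, at a log2 fold change of -0.80, short of the fold change needed for a call. In the fit with no filter ptgdsb.1 had a log2 fold change of 0.44 (edgeR FDR 0.893) and lipg one of -0.45 (edgeR FDR 0.935). No gene of the 6 was called under any of the alternatives run. The order of the group means, LWS1 above LWS2, held for 5 of the 6 genes, ptgdsb.1 being the exception and lipg at the limit of detection, and for none of them without overlap, against 7.29% of features with all LWS1 libraries above all LWS2 libraries and 12.5% the other way. The share of all features with that order of means was not counted.

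Against tdTomato+ cones, LWS1 cones had the higher mean for all 6 genes, and LWS2 cones for slc7a10a, ptgdsb.1 and itgb5. For lipg this rested on 3 summed counts in LWS1 and 3 in tdTomato+ cones, and for ptgdsb.1 on 7 and 5. The share of all features with a higher mean in LWS1 or LWS2 was not counted, so nothing can be read from this order. No gene was without overlap in either pairing, against 4.55% of features with LWS1 above tdTomato+ and 9.36% with LWS2 above tdTomato+, and 5.39% and 5.7% with tdTomato+ above LWS1 and LWS2. These comparisons share the tdTomato+ libraries that entered the choice, so they were not tested. They also set lws:PAC(H) fish against thrb2:tdTomato fish, so cone type cannot be told apart from fish line, reporter and sort.

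In LWS2 cones the residual levels of the genes were high or low in the same libraries, and less so in LWS1 and tdTomato+ cones. In tdTomato+ replicates 1, 2 and 3 itgb5 ran the other way from apoeb, at 7.03%, 3.86% and 5.80%. LWS2 replicate 2 was the highest LWS2 library for 6 of 6 genes, against 37.1% of all features, and LWS2 replicate 1 was the lowest for 6 of 6. LWS1 replicate 1 was the lowest LWS1 library for 5 of 6 genes, with lipg as the exception. LWS1 replicates 2 and 3 were each the highest for 3 genes, against 34.3% and 33.3% of all features. The share of all features was not counted for the lowest libraries. Among tdTomato+ libraries, replicate 2 was the highest for 4 of 6 genes, against 29.0% of all features. They included ptgdsb.1, at 2, 3 and 0 counts, and lipg, at 1 count in each library and so ranked by library size alone. The median residual level over the 6 genes was 3.30%, 11.7% and 7.19% in LWS1 replicates 1, 2 and 3. It was 1.62%, 7.74% and 3.14% in LWS2 and 1.41%, 3.81% and 4.66% in tdTomato+ cones. By this median replicate 1 was the lowest library in each cone group. Over groups the median residual level was 8.47% in LWS1, 4.15% in LWS2 and 4.08% in tdTomato+ cones. It was 5.46% in LWS1 without LWS1 replicate 2 and 2.48% in LWS2 without LWS2 replicate 2, and it became 12.9% in LWS1 and 8.59% in LWS2 when libraries were scaled by total counts only.

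**Figure D3:**
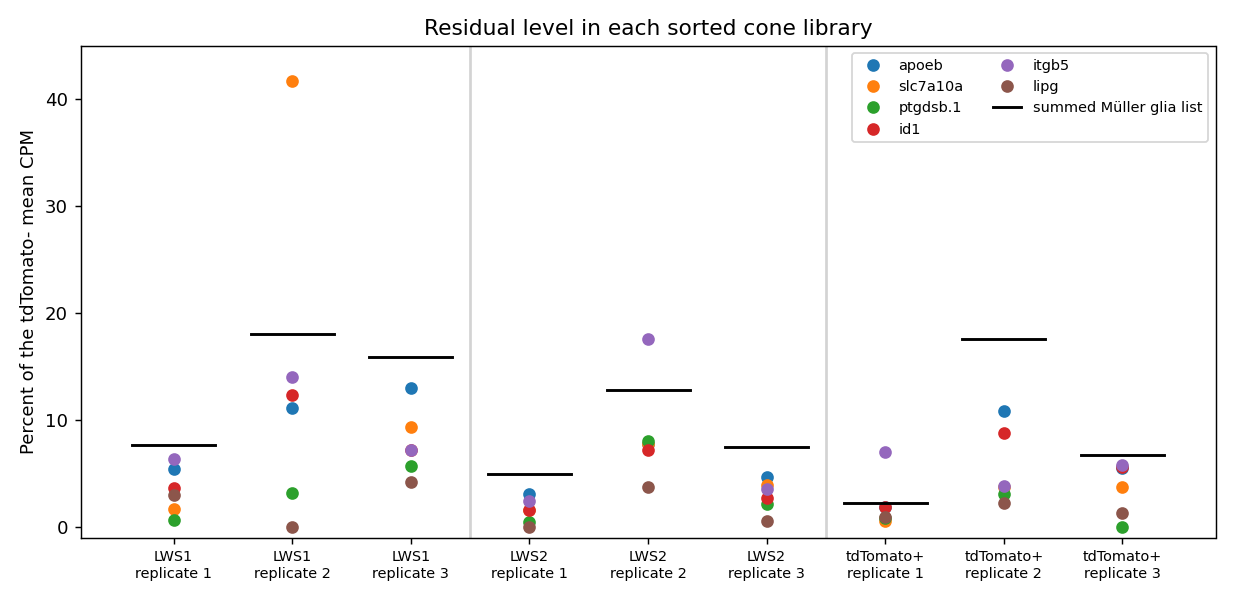
Residual level of each gene (coloured points) in the 9 cone libraries, as a percent of the tdTomato- mean CPM (y axis), with black bars for the summed Müller glia list on the same scale. Replicate 1 has the lowest bar in each group, and slc7a10a in LWS1 replicate 2, at 41.8%, is the highest point.

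A list of Müller glia genes had the same order of libraries as the median residual level in LWS1 and in LWS2, while in tdTomato+ cones replicates 2 and 3 changed places. Its 32 features, led by glula (glutamine synthetase), cahz (a carbonic anhydrase) and slc1a2b (a glutamate transporter), summed to 6147, 10813 and 9144 CPM in tdTomato- replicates 1, 2 and 3. The sum was 671, 1573 and 1382 CPM in LWS1, 434, 1120 and 651 CPM in LWS2, and 194, 1533 and 584 CPM in tdTomato+ cones. The lowest sum in every group was thus that of replicate 1 and the highest that of replicate 2. Of the 32 features, 29 had a count in tdTomato- cells, 24 in LWS1, 27 in LWS2 and 24 in tdTomato+ cones, and stm, slc6a11a and 1 of the SLC1A3 copies were at 0 in all groups. As a percent of the tdTomato- mean the list stood at 13.9%, 8.45% and 8.85% in LWS1, LWS2 and tdTomato+ cones, above the median residual level of the 6 genes in each. This order in LWS1 and LWS2 was not particular to the Müller glia list. The rod list had it too, at 2587, 5457 and 3951 CPM in LWS1 and 1980, 3540 and 2484 CPM in LWS2. So did the horizontal, the pigment epithelium, and the oligodendrocyte and Schwann cell lists. The LWS cone, other cone, bipolar, amacrine, ganglion and vascular lists did not have it in both groups. The part of the Müller glia list in the residual levels was not tested.

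Of the 6 genes, apoeb followed this list most closely. Over the 12 libraries the log2 CPM of apoeb and of the list sum correlated at a Pearson r of 0.991, and over the 9 cone libraries at 0.979. The points share library, depth and scaling, and the correlations are given as descriptions. The genes were chosen for a step between tdTomato- and tdTomato+ cells that the list also has, which favours a high r over the 12 libraries. Correlations with the other marker lists were not run. For id1 the values were 0.973 and 0.883, for slc7a10a 0.941 and 0.799, and for ptgdsb.1 0.934 and 0.671. itgb5 (0.877 and 0.349) and lipg (0.880 and 0.329) followed the list over the 12 libraries but weakly within cones. In a cone library lipg had 0 to 6 counts and itgb5 4 to 65, against 146 to 933 for apoeb. The order of the genes within cones therefore cannot be told apart from their depth, and nothing can be read from the value of lipg.

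**Figure D4:**
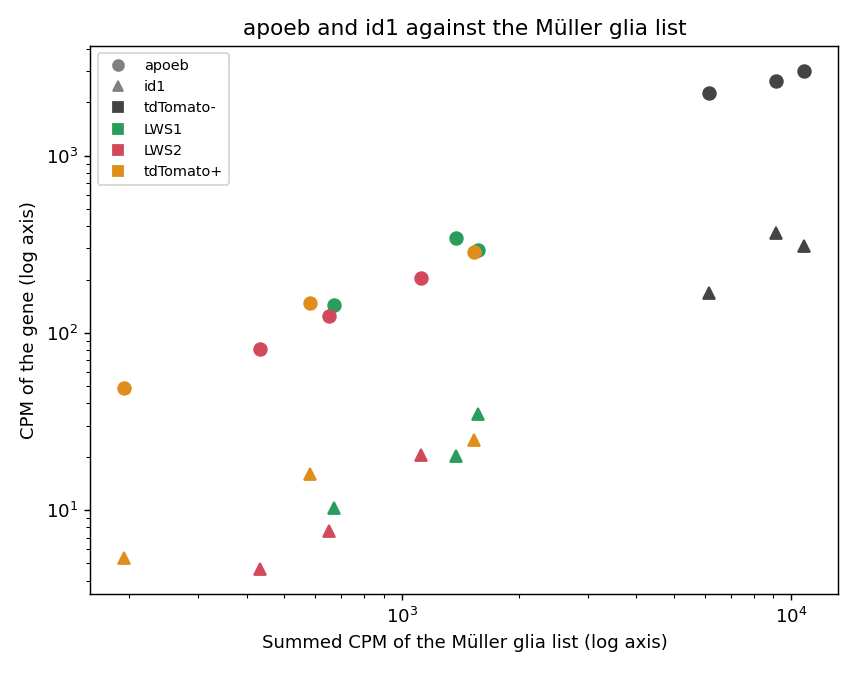
CPM of apoeb (circles) and id1 (triangles) on the y axis against the summed CPM of the 32-feature Müller glia list on the x axis, both log axes, with 1 point for each of the 12 libraries, coloured by group. The tdTomato- libraries lie at list sums of 6147 to 10813 CPM and the cone libraries at 194 to 1573 CPM, and within cones apoeb rises with the list sum.

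Set against the list in the same library, a ratio that no scaling between libraries changes, apoeb amounted to 36.8%, 27.9% and 28.9% of the list sum in tdTomato- replicates 1, 2 and 3. It amounted to 21.3%, 18.6% and 24.9% in LWS1, to 18.7%, 18.2% and 19.0% in LWS2 and to 25.1%, 18.7% and 25.1% in tdTomato+ cones. The cone libraries therefore spanned 18.2% to 25.1%, below all 3 tdTomato- libraries, and LWS1 and LWS2 overlapped. For id1 the ratio was 2.73% to 4.03% in tdTomato- cells and 1.07% to 2.75% in cones, ranges that just overlapped. ptgdsb.1 was at 0.748% to 0.952% of the list in tdTomato- cells and at 0% to 0.547% in cones, and lipg at 0.250% to 0.695% against 0% to 0.172%. The choice of genes used these tdTomato- and tdTomato+ libraries, which favours a higher ratio in tdTomato- cells. The share of all features without overlap on this ratio was not counted, so nothing can be read from the lack of overlap of apoeb, ptgdsb.1 and lipg. For slc7a10a and itgb5 the cone range enclosed that of tdTomato- cells. For slc7a10a this rested on LWS1 replicate 2, at 1.65%. The other cone libraries were at 0.153% to 0.430%, below the lowest tdTomato- library (0.617%). For itgb5 it rested on tdTomato+ replicate 1 (2.93%, 17 counts) and LWS2 replicate 2 (1.27%), above the highest tdTomato- library (1.04%).

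Summed levels of the marker lists of other cell classes were also measured in the cone libraries, and stood at different shares of their tdTomato- means. The rod list of 19 features stood at 14.5%, 9.64% and 34.5% of its tdTomato- mean in LWS1, LWS2 and tdTomato+ cones, and the list of 10 features of the other cones at 16.3%, 19.7% and 39.5%. In tdTomato+ cones both were above the residual levels of all 6 genes. The vascular list stood at 41.0%, 25.6% and 28.0%, with a summed level of at most 127 CPM in any library. Its leading genes pdgfrb, KDR and kdrl had means of 75.3, 19.9 and 6.47 CPM in tdTomato- cells. The bipolar, horizontal, ganglion, and oligodendrocyte and Schwann cell lists stood at 17.2% to 52.5% of their tdTomato- means, and the amacrine and pigment epithelium lists at 53.8% to 190.0%. In LWS1, LWS2 and tdTomato+ cones the amacrine list was at 120%, 102% and 168%, and the pigment epithelium list at 102%, 53.8% and 190%. The amacrine and pigment epithelium lists were therefore not particular to tdTomato- cells. The part of the marker lists in the levels of the 6 genes was not tested.

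Between the 6 genes, log2(CPM + 0.5) correlated over the 12 libraries at a Pearson r from 0.800 to 0.982 in the 15 pairs, highest between apoeb and id1. Over the 9 cone libraries the range was -0.06 to 0.911, so that the shared pattern was mainly the step between tdTomato- cells and cones. The genes were chosen for a step between tdTomato- and tdTomato+ cells. That choice favours a high r over the 12 libraries, between the genes and with other features, so these values are descriptions only. The lowest value over the 9 cone libraries was that of slc7a10a with lipg, which was at the limit of detection in cones. The features most like apoeb over the 12 libraries were cdo1 (cysteine dioxygenase, r = 0.991), cahz (0.989) and glula (0.987). Those most like id1 were sparc, a secreted matrix protein, at 0.991, followed by apoeb (0.982) and efhd1 (0.977). sparc also led for ptgdsb.1 (0.949), followed by FZD7 (0.948) and CAV2 (0.947). For slc7a10a they were slc43a2b, an amino acid carrier, at 0.963, ptgs2b (0.962) and capn1a (0.959), and for itgb5 aldh9a1a.1 (0.946), si:dkey-246e1.3 (0.940) and id1 (0.939). EPB41L5 (0.968), FZD7 (0.967) and RGR, a retinal G protein-coupled receptor gene of Müller glia and pigment epithelium (0.966), were most like lipg.

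The gene families around the 6 genes were examined in tdTomato- against tdTomato+ libraries, with the 6 genes left out and lists chosen with earlier results of these data known. Over all features edgeR called 1.99% of 8236 higher in tdTomato- cells. DESeq2, run without the edgeR filter on low counts, called 428 of 20973 higher. The counts of calls by list below are small and were not tested against these shares. In the prostaglandin list edgeR called 3 of 8 tested features higher in tdTomato- cells and none lower, DESeq2 called the same 3, with a median log2 fold change of 0.48, beside -0.11 over all features. The symbols of this list also included rbp4 and rbp4l, which are retinol-binding protein genes and not prostaglandin genes. ptgdsb.2, the near copy of ptgdsb.1, had 76, 2344 and 1241 counts in tdTomato- cells, and its CPM were 250, 963 and 745. In LWS1 it had 42, 31 and 27 counts, in LWS2 39, 134 and 68, and in tdTomato+ cones 11, 69 and 37. Its means in these groups were 28.6, 18.8 and 24.9 CPM. It was higher in tdTomato- than in tdTomato+ libraries by a log2 fold change of 4.67 (edgeR FDR 0.0267, SE 0.867), and within LWS2 it peaked in the same library as ptgdsb.1. ptgs2b, an inducible cyclooxygenase that acts upstream of prostaglandin D synthase, rose by 4.06 (edgeR FDR 0.0209, SE 0.676), with 42, 248 and 134 counts in tdTomato- cells against 6, 13 and 15 in tdTomato+ cones. SLCO2A1, a prostaglandin transporter gene, rose by 5.72 (edgeR FDR 0.0221, SE 1.00), with 3, 75 and 38 counts against 0, 1 and 1. In pooled counts its level in tdTomato+ cones was 1.19% (exact 95% interval 0.142% to 4.38%) of that in tdTomato- cells, and the fitted fold change depends on the prior count of the fit. PTGES3, PTGES2 and ptgr1.1 did not pass the test (edgeR FDR from 0.689 to 0.861), at log2 fold changes of -0.59, -0.37 and 0.66. ptgdsa had 1 count in the tdTomato- libraries and none in the cones, so nearly all counts of lipocalin-type prostaglandin D synthase were those of the ptgdsb genes.

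In the list of lipoprotein handling genes edgeR called 1 of 8 tested features higher in tdTomato- cells and none lower, with a median log2 fold change of 1.96. lrp1aa, a receptor that takes up apolipoprotein E in mammals, was at 171, 158 and 132 CPM in tdTomato- cells and at 14.0, 26.5 and 36.1 CPM in tdTomato+ cones, a log2 fold change of 2.53 (edgeR FDR 0.0330, SE 0.520). The scavenger receptor gene scarb2a had a log2 fold change of 3.53 (edgeR FDR 0.0502), scarb1, a receptor for high-density lipoprotein, 2.3 (edgeR FDR 0.193) and the sterol exporter gene abcg1 -2.14 (edgeR FDR 0.197), none past the threshold. DESeq2 called lrp1aa and scarb2a. Among apolipoproteins without apoeb, 0 of 4 tested features were called by edgeR, 0 had an unadjusted p under 0.05, DESeq2 called 0, and the median was -0.61. APOO, measured as 2 copies, and apool, which are mitochondrial proteins despite their names, had log2 fold changes of -0.65, -0.68 and -0.57 (edgeR FDR from 0.747 to 0.821). The second apolipoprotein E gene, apoea, had no count in any of the 12 libraries, so all counts of apolipoprotein E were those of apoeb.

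apoc1, which lies next to apoeb in GRCz12tu, did not share its pattern, as seen after its values were known. It had 1, 136 and 19 counts in tdTomato- cells, 34, 115 and 40 in LWS1, 39, 163 and 64 in LWS2 and 7, 76 and 9 in tdTomato+ cones. Its mean was 56.3 CPM in LWS1 and 23.5 CPM in tdTomato- cells, and the groups overlapped. The log2 fold change of tdTomato- over tdTomato+ was 0.19 (edgeR FDR 0.964, SE 1.1). In each group replicate 2 was the highest library for apoc1.

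In the BMP and ID list edgeR called 1 of 12 tested features higher in tdTomato- cells and none lower, against 1.99% of all features called higher. Of the 12 log2 fold changes 11 were above 0, with a median of 1.15, beside -0.11 over all features. The share of all features above 0 was not counted. HEY1, a transcriptional repressor gene of the hairy family, rose by 4.45 (edgeR FDR 0.0315, SE 0.900), with 7, 29 and 33 counts against 3, 0 and 2. The BMP receptor gene bmpr1ba had a log2 fold change of 3.71 (edgeR FDR 0.0510), the ligand gene BMP7 3.88 (edgeR FDR 0.0736) and the receptor gene BMPR1A 1.71 (edgeR FDR 0.221). DESeq2 called 4 features higher and none lower, which were HEY1, bmpr1ba, BMP7 and SMAD6, an inhibitor gene of BMP signals. SMAD6 did not pass the edgeR filter on low counts and is not among the 12. The relatives of id1 were picked out after their values were seen. ID2 had a log2 fold change of 0.43 (edgeR FDR 0.845) and id2b one of 0.49 (edgeR FDR 0.878). ID3 did not pass the filter, at 0, 46 and 38 counts in tdTomato- cells and 1, 0 and 5 in tdTomato+ cones.

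Among other integrin chains only itgav, the alpha V partner of itgb5, passed the filter on low counts. It had 5, 132 and 78 counts in tdTomato- cells and 0, 9 and 15 in tdTomato+ cones, at a log2 fold change of 3.05 (edgeR FDR 0.164). It was not called by edgeR, had an unadjusted p under 0.05 and was called by DESeq2, which called 2 integrins higher in tdTomato- cells, itgav and ITGA6. In LWS1 it had 3, 1 and 2 counts, or 1.54, 0.812 and 2.90 CPM. In LWS2 it had 20, 17 and 8 counts, or 6.62, 3.72 and 1.65 CPM, so LWS1 and LWS2 overlapped. In the list of amino acid carriers around slc7a10a, 0 of 5 tested features were called by edgeR, with 1 at an unadjusted p under 0.05 and 1 called by DESeq2, slc3a2a in both cases, and the median was 0.02. This gene, which encodes a heavy chain that partners several carriers of the family, had a log2 fold change of 4.31 (edgeR FDR 0.101), while SLC7A6OS and SLC7A3 had -0.68 and -0.52 (edgeR FDR 0.685 and 0.767). A second feature of the heavy chain, SLC3A2, was more abundant and had a log2 fold change of 0.31 (edgeR FDR 0.854). In tdTomato- cells SLC3A2 stood at 253 CPM, against 33.6 CPM for slc3a2a. In LWS1, LWS2 and tdTomato+ cones SLC3A2 stood at 218, 259 and 201 CPM. SLC7A6OS is among the 5 tested features but is not a carrier despite its name. Another feature, named SLC7A10 in the reference table, had 0, 2 and 2 counts in tdTomato- cells. It had 0, 6 and 0 counts in LWS1, 2, 3 and 5 in LWS2 and 5, 0 and 5 in tdTomato+ cones. Its mean was 0.674 CPM in tdTomato- cells and 1.62, 0.784 and 1.34 CPM in LWS1, LWS2 and tdTomato+ cones.

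In LWS2 against LWS1 no feature of the 6 lists was called by edgeR, and no other integrin was tested. Other than the 6 genes, the features tested were 4 of the apolipoprotein list, 5 of the lipoprotein handling list, 5 of the amino acid carrier list, 7 of the prostaglandin list and 6 of the BMP and ID list. Those with an unadjusted p under 0.05 numbered 1, 2, 0, 1 and 1 in this order of lists, and DESeq2 called 0 in each. The medians of log2 fold change were -0.22, -1.01, 0.25, -0.30 and -0.55, beside -0.02 over all features. The calls in the tdTomato- comparison rest on the same libraries as those of the 6 genes, with 1 called feature left without tdTomato- replicate 2 and 0 without tdTomato+ replicate 3.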

How the data were processed

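Zebrafish retinal cells were sorted by fluorescence, and poly-A libraries were made with a TruSeq kit. The authors trimmed reads with Trimmomatic 0.36, used STAR and Salmon on GRCz11 with tximport, and deposited whole-number counts per Ensembl gene, not normalized. Which aligner gave the counts, and whether strand was used, is not given in the sources used here. Besides, 2 deposited tables hold DESeq2 results of the authors (fold changes, p-values). They gave symbols and IDs only, and 12 per-sample columns in them were not used. Other symbols (22639 of 23649) came from a reference name table.

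Features were filtered with filterByExpr, scaled by TMM and tested with the quasi-likelihood test of edgeR 4.0.16 (R 4.3.3) adjusted by Benjamini-Hochberg, and called where the FDR was under 0.05 and the fold change above 2. DESeq2 1.42.0 was an alternative. CPM used TMM factors over the 12 libraries. Means and correlations used Python 3.11.15 with pandas 2.3.3, numpy 2.4.6 and scipy 1.17.1, and plots matplotlib 3.10.9. Intervals on pooled counts are exact conditional 95% intervals and, like the floor of 3 counts, cover counting error only. The fit was tested on simulated counts.

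The members and lists were chosen with earlier results of these data known. The genes named are the 6 members, for each member the 3 features with the highest Pearson r of log2(CPM + 0.5), for each family list the called features and at most 3 others with the smallest p, and the leading genes of the marker lists that the text uses. The marker lists used are those of Müller glia, rods, LWS cones, other cones, bipolar, amacrine, horizontal, ganglion, pigment epithelial and vascular cells, and oligodendrocytes with Schwann cells. A microglia and macrophage list was left out, since its sum needs an item that is not reported here. ptgdsa, apoea, apoc1, rhpn2, ID2, id2b, ID3, SLC7A10 and SLC3A2 were added after their values were seen. A list of erythrocyte genes matched at 57.1% and was not used. No sequence or coordinates are shown.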

Additional observations from a re-analysis of the deposited data

How the results depend on the processing

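None of the 6 genes was called in LWS2 against LWS1 under any alternative run. All kept a positive log2 fold change in tdTomato- against tdTomato+, the direction for which they were chosen, so nothing can be read from that sign. The 152 features called in LWS2 against LWS1 became 353 with DESeq2, 236 with total counts only, 678 with no filter on low counts and 20 with all 4 groups in one fit, and ranged from 1 to 145 with a library left out (13, 43 and 1 without LWS2 replicates 1, 2 and 3). With total counts only the median log2 fold change of all features moved from -0.02 to 0.35, and the split of higher to lower calls from 101 and 51 to 216 and 20. The 176 features called in tdTomato- against tdTomato+ became 502 with DESeq2, 319 with total counts only, 617 with no filter and 378 with all 4 groups in one fit, and ranged from 0 to 195 with a library left out. The number of the 6 genes called there ranged from 0 to 6 with a library left out. The median residual level became 12.9% in LWS1 and 8.59% in LWS2 with total counts only. With a library left out it ranged from 5.46% to 10.2% in LWS1, 2.48% to 5.47% in LWS2 and 2.93% to 4.33% in tdTomato+ cones. The log2 fold change of LWS2 over LWS1 changed sign for itgb5 with total counts only (0.19) and without LWS1 replicate 2 (0.28), LWS2 replicate 1 (0.20) or LWS2 replicate 3 (0.15), and for slc7a10a without LWS1 replicate 2 (0.044). With a library left out it ranged from -2.53 to 0.044 for slc7a10a and from -1.57 to 0.28 for itgb5, with no value for slc7a10a without LWS2 replicate 2, where it did not pass the filter. The cause was not tested.

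The labels number the replicates of every group, and do not say that a number marks shared fish or a shared day. The paper shows GFP+ and RFP+ gates on a single lws:PAC(H) sample, so same-numbered libraries may share retinas. Deviations from the group means correlated between same-numbered libraries at 0.180, 0.155 and 0.004 in LWS1 and LWS2. In the tdTomato groups they did so at -0.042, 0.101 and -0.093. These low values do not exclude shared retinas. The Müller glia list was lowest in replicate 1 and highest in replicate 2 of every group. That order spans lws:PAC(H) and thrb2:tdTomato fish, which share no retinas, and its cause was not tested. The main fit left the samples unpaired, and a block on the replicate number was run as an alternative. With the replicate number as a block, 200 features were called in LWS2 against LWS1, 139 of them shared with the 152, and 144 in tdTomato- against tdTomato+, 113 shared with the 176. None of the 6 genes was called in LWS2 against LWS1 with the block, where apoeb had a log2 fold change of -0.93 (edgeR FDR 0.0478). lipg and ptgdsb.1 had too few counts in LWS1 and LWS2 cones to pass the filter, and tdTomato- replicate 1, with the fewest counts, set a floor of 9.86 CPM for 3 counts.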
